A study of Mus musculus with 9 samples.

Results

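The segments described here are the variable (V) segments of the T cell receptor (TCR) α chain, TRAV, in sorted mouse thymocytes. They were all V names given to TRA chains in the 3 TCR tables, and came to 89 of the 171 V, D, J and C segments those tables hold, with all 89 read in every gate. Thymocytes came from adult female mice, either wild type (WT, hashtag 4) or with the I173A substitution in CD3ε (hashtag 6), a signalling chain of the TCR complex. They were sorted as CD4 single-positive (CD4 SP), CD8 single-positive (CD8 SP) or double-positive (DP) cells, and each gate was run as 1 library on the 10x Genomics 5′ platform. The strain, the age in weeks and the number of mice per genotype are not given in the sources used here. Cells with hashtag 5 were also in every library. The labels give them no genotype, so they served only as a further set of cells, mainly for comparisons between gates. Where their values stand beside WT and I173A within a gate, they are not read as a genotype. With 1 sample per genotype and gate there was no replicate and no test. Each share carries an exact Clopper-Pearson 95% interval and each ratio of shares the exact conditional interval for 2 Poisson counts. These cover counting error only. Higher and lower describe these samples.

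A TCR α chain is made when a DP thymocyte joins a TRAV segment to a TRAJ segment. The TRAV segment encodes complementarity-determining regions (CDR) 1 and 2, the loops that in known structures mostly lie over the helices of the MHC molecule, while CDR3 is made at the joint. Cells selected on MHC class II become CD4 SP and cells selected on MHC class I become CD8 SP. Rearrangement in DP cells starts with TRAV segments at the 3′ end of the locus and TRAJ segments at its 5′ end and moves outwards in later rounds. In mice much of the locus was duplicated, and the copies carry a D or N in their names (TRAV12-3 and TRAV12D-3).

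The CD4 SP library gave 3185 TRA chains from WT cells, 2703 from I173A and 2797 from hashtag 5, the CD8 SP library 2674, 2680 and 2410, and the DP library 757, 1048 and 853. DP values are therefore the least precise. A productive TRA chain was found in 89.1% of WT and 89.1% of I173A CD4 SP cells, 78.0% and 82.4% of CD8 SP cells, and 27.8% and 35.1% of DP cells. The sort matched its markers. Zbtb7b, the CD4 lineage factor, had a UMI in 45.8% of WT CD4 SP cells and 0.0331% of WT CD8 SP cells, Nkg7, a granule gene of CD8 cells, in 2.54% and 75.5%, and Rag1, the recombinase of DP cells, in 85.1% of WT DP cells. A UMI of Rag1, Rag2, Dntt, Ptcra or Mki67 was found in 25.1% of WT and 17.3% of I173A CD8 SP cells, against 11.4% and 10.6% in CD4 SP, so the CD8 gate held more immature or cycling cells in WT. Between 109 and 124 barcodes were shared by any pair of gates, and none of them carried the same TRA CDR3 in both.

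Grouped by subgroup, the number after TRAV, the α chains of the CD4 SP and CD8 SP gates differed in TRAV16, TRAV12, TRAV4 and TRAV11 among others. TRAV16 made up 3.48% of WT, 4.25% of I173A and 3.22% of hashtag 5 chains in CD4 SP, against 8.94%, 9.85% and 9.25% in CD8 SP. All 3 CD8 SP shares lay above all 3 CD4 SP shares, and with WT and I173A chains summed the ratio was 2.45 (2.09 to 2.88). TRAV12, the largest subgroup of the CD8 SP gate, went from 8.41%, 9.10% and 8.80% in CD4 SP to 14.3%, 14.5% and 14.4% in CD8 SP, a ratio of 1.65 (1.47 to 1.85). TRAV8 (1.54, 1.28 to 1.87), TRAV3 (1.35, 1.14 to 1.60) and TRAV19 (1.98, 1.33 to 2.99) were also higher in CD8 SP, and in hashtag 5 cells their ratios were 1.60, 1.84 and 2.01. TRAV4 went the other way, from 8.23%, 8.03% and 7.62% in CD4 SP to 4.23%, 3.99% and 4.81% in CD8 SP, a ratio of 0.505 (0.429 to 0.594). TRAV14 (0.750, 0.667 to 0.844), TRAV6 (0.806, 0.730 to 0.888), TRAV7 (0.817, 0.737 to 0.905) and TRAV9 (0.822, 0.712 to 0.949) were lower in CD8 SP by smaller amounts, also below 1 in WT, I173A and hashtag 5 taken alone. TRAV5 (0.866, 0.710 to 1.05), TRAV10 (0.915, 0.742 to 1.13) and TRAV17 (0.772, 0.479 to 1.23) did not differ beyond counting error. TRAV13, with 476 chains in CD4 SP and 492 in CD8 SP, was at its limit with 1.14 (1 to 1.29), and at 1.20, 1.07 and 1.245 in WT, I173A and hashtag 5. TRAV1, TRAV2 and TRAV15 had ratios of 2.25, 1.88 and 1.89, but with 64, 46 and 57 chains over both gates, and their ratios in hashtag 5 were 1.08, 0.625 and 0.516.

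**Figure D1:**
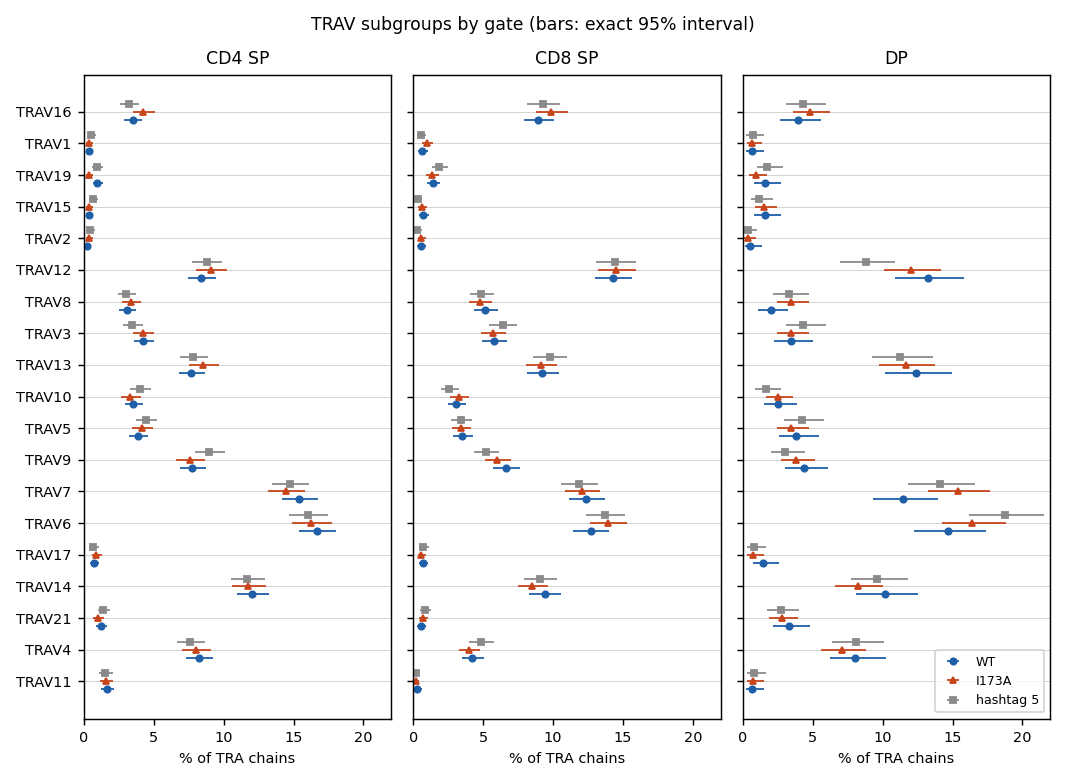
Share of TRA chains (x axis, percent) of the 19 TRAV subgroups with at least 50 chains in CD4 SP, CD8 SP and DP cells, for WT (circles), I173A (triangles) and hashtag 5 (squares), with exact 95% intervals. TRAV16 and TRAV12 sit further right in CD8 SP than in CD4 SP in all 3 sets of cells, and TRAV4 and TRAV11 further left.

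A single segment was called when its share differed at least 1.5-fold in the same direction in WT and in I173A, among the 56 segments with at least 80 chains over CD4 SP and CD8 SP. By this rule 7 segments (12.5% of those compared) were higher in CD8 SP and 11 (19.6%) were higher in CD4 SP, 32.1% in all, while the median ratio over all 56 was 0.962. The same rule called 6 of 41 TRAJ segments (14.6%) and 8 of 21 TRBV segments (38.1%). The log2 ratios of the 56 TRAV segments correlated across segments with r = 0.849 between WT and I173A, 0.853 between WT and hashtag 5, and 0.838 between I173A and hashtag 5. These are descriptions over segments, and the 3 sets share their libraries. The 56 include TRAV11, the lowest in WT, I173A and hashtag 5 at 0.180, 0.120 and 0.108, and r without it was not computed. Hashtag 5 cells, which played no part in the calls, had all 7 CD8 SP segments past 1.5-fold, and of the 11 CD4 SP segments 10 in the same direction and 8 past 1.5-fold.

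TRAV8D-2 (chr14:53042428-53042891 of GRCm38) had the highest ratio. It made up 0.345% of WT, 0.481% of I173A and 0.322% of hashtag 5 chains in CD4 SP, against 1.76%, 1.53% and 1.29% in CD8 SP. The summed ratio was 4.03 (2.54 to 6.62), from 24 chains in CD4 SP and 88 in CD8 SP. TRAV16 (chr14:53743174-53743705) went from 0.942%, 1.04% and 0.644% to 2.95%, 3.81% and 2.99%, a ratio of 3.43 (2.54 to 4.70). Its copies TRAV16N (chr14:53351090-53351621) and TRAV16D-DV11 (chr14:53047287-53047821) had ratios of 2.21 (1.76 to 2.78) and 1.86 (1.29 to 2.71), so the whole subgroup was on the CD8 SP side. TRAV12D-3 (chr14:52929789-52930282) was the most used of the 7, at 1.82%, 1.92% and 1.82% in CD4 SP against 4.08%, 4.74% and 4.27% in CD8 SP, a ratio of 2.36 (1.87 to 2.99). For TRAV12-2 (chr14:53616397-53616914) the shares were 1.76%, 2.18% and 1.86% against 3.96%, 3.73% and 4.19%, a ratio of 1.97 (1.56 to 2.50). TRAV9D-3 (chr14:52920678-52921110) went from 0.785%, 1.15% and 0.822% to 1.98%, 2.35% and 1.58%, a ratio of 2.28 (1.64 to 3.19). In each of these 7 segments the lowest of the 3 CD8 SP shares was above the highest of the 3 CD4 SP shares. Among the 10 highest ratios, TRAV19 (1.98), TRAV12-1 (1.73) and TRAV3-3 (1.67) fell short of the call in 1 genotype, with 1.47 in WT for TRAV19 and 1.49 and 1.30 in I173A for the others. TRAV8N-2, with the same summed counts as TRAV3-3 and so tied with it at 1.67, fell short in WT with 1.42. Together the 7 segments made up 8.19% of WT and 9.99% of I173A chains in CD4 SP against 20.7% and 22.2% in CD8 SP. Those totals follow from the choice of the segments and are given as a description.

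**Figure D2:**
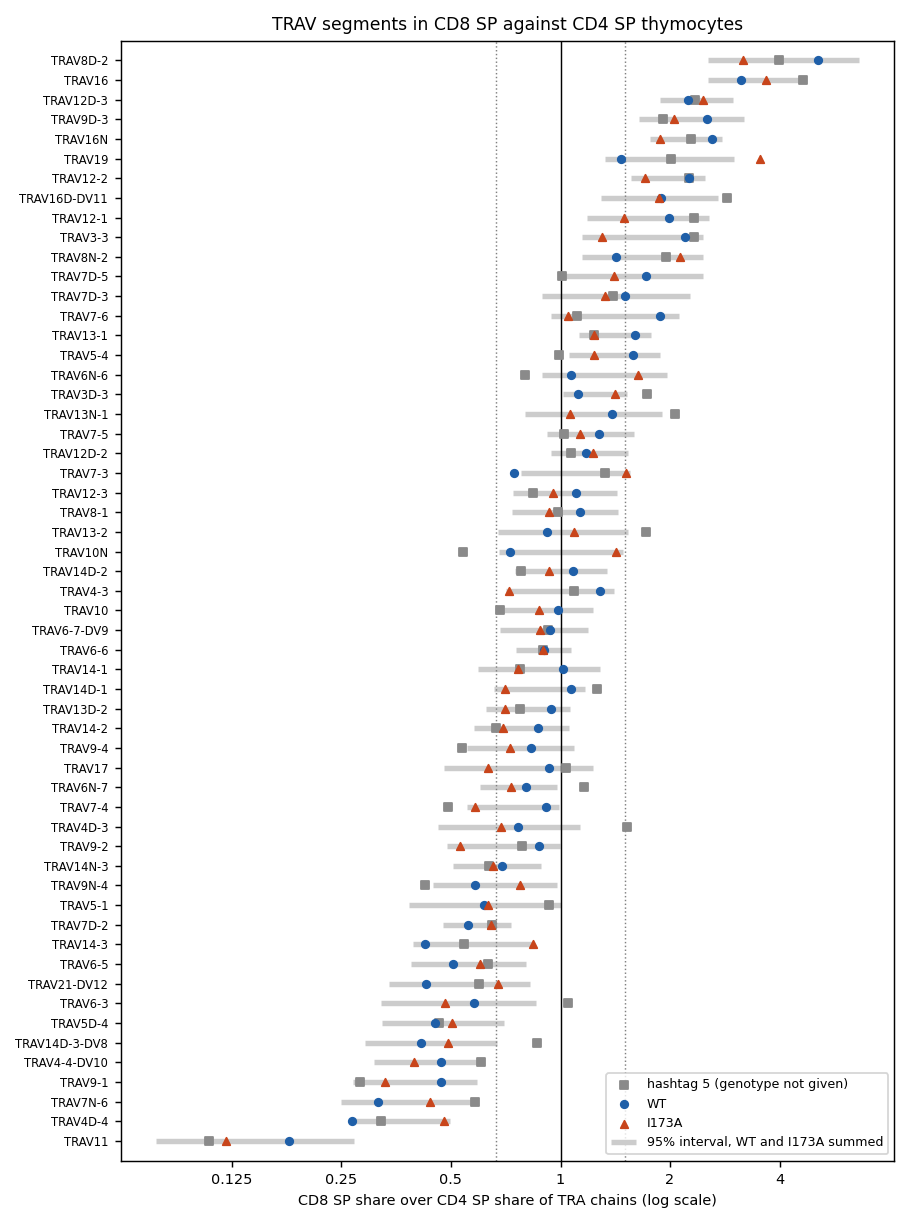
CD8 SP share over CD4 SP share of TRA chains (x axis, log scale) for the 56 TRAV segments with at least 80 chains, ordered by the ratio of WT and I173A summed, whose 95% interval is the grey bar. Circles are WT, triangles I173A and squares hashtag 5, and the dotted lines mark 1.5-fold. Ratios run from 0.15 for TRAV11 to 4.03 for TRAV8D-2, and the 3 symbols lie on the same side of 1 for all 7 segments called in CD8 SP and for 10 of the 11 called in CD4 SP.

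On the CD4 SP side the lowest ratio after TRAV11 was that of TRAV4D-4 (chr14:52990889-52991389). Its share went from 3.08% of WT, 2.89% of I173A and 2.72% of hashtag 5 chains in CD4 SP to 0.823%, 1.38% and 0.871% in CD8 SP, a ratio of 0.369 (0.270 to 0.498). Its copy TRAV4-4-DV10 (chr14:53683677-53684177) went from 2.23%, 2.26% and 2.68% to 1.05%, 0.896% and 1.62%, a ratio of 0.433 (0.308 to 0.601). TRAV7N-6 (chr14:53324676-53325208) went from 1.54%, 1.70% and 1.502% to 0.486%, 0.746% and 0.871% (0.382, 0.249 to 0.573). TRAV9-1 (chr14:53488106-53488567) went from 1.92%, 1.59% and 2.22% to 0.898%, 0.522% and 0.622% (0.402, 0.270 to 0.588). For TRAV5D-4 (chr14:53001713-53002231) the shares were 1.57%, 1.63% and 1.79% against 0.710%, 0.821% and 0.830% (0.480, 0.324 to 0.699). In these 5 segments every CD4 SP share was above every CD8 SP share. TRAV7D-2 (chr14:52683964-52684472), the most used of the 11, made up 4.71%, 3.89% and 4.04% in CD4 SP against 2.62%, 2.50% and 2.61% in CD8 SP (0.591, 0.476 to 0.730). TRAV6-5 had a ratio of 0.562 (0.388 to 0.803). The calls were not equally firm. For TRAV14D-3-DV8 (0.445), TRAV6-3 (0.530) and TRAV5-1 (0.625) the hashtag 5 ratios were 0.860, 1.05 and 0.928, and the interval of TRAV5-1 (0.382 to 1.01) reached past 1. TRAV21-DV12, among the 10 lowest with 0.533, missed the call with 0.672 in I173A. Segments with fewer than 80 chains were not called, and the lowest ratios among them with at least 40 chains in CD4 SP were those of TRAV4-2 (0.153, 43 and 6 chains), TRAV6-4 (0.288, 42 and 11 chains) and TRAV7D-4 (0.336, 59 and 18 chains).

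TRAV11 is joined to TRAJ18 in invariant NKT cells, which are selected on CD1d, an MHC class I-like molecule that presents lipids, and here the segment had the lowest ratio of all, 0.15 (0.077 to 0.270). It made up 1.66% of WT, 1.55% of I173A and 1.54% of hashtag 5 chains in CD4 SP against 0.299%, 0.187% and 0.166% in CD8 SP. In CD4 SP, TRAJ18 was the partner in 45 of 53 WT chains, 37 of 42 I173A chains and 35 of 43 hashtag 5 chains. CD8 SP had 0 of 8, 0 of 5 and 1 of 4, and DP 0 of 5, 1 of 8 and 2 of 7. With chains joined to TRAJ18 set aside, 13 chains remained in each gate and the ratio was 1.10 (0.470 to 2.58). Without the TRAJ18 joints the interval thus held 1. Zbtb16, the transcription factor of NKT cells, had a UMI in 1.09% of WT and 0.938% of I173A CD4 SP cells, and 0 UMIs in WT and 1 in I173A CD8 SP cells. Of the other markers listed for innate-like and NKT cells, Klrb1c had a UMI in 1.35% of WT CD4 SP and 0.0994% of WT CD8 SP cells. For Tbx21 these were 1.38% and 0.696%, and for Il4 0.740% and 0%. Il2rb went the other way, with 13.6% and 39.5% in WT and 15.8% and 47.9% in I173A. TRAV11D, the copy also used by invariant NKT cells, was not among the 89 names. TRAV1, joined to TRAJ33 in mucosal-associated invariant T cells, had 21 chains in CD4 SP, 0 of them joined to TRAJ33, against 43 in CD8 SP with 2 joined to it (WT and I173A summed).

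The 89 segments lie between 52427967 and 53876752 on chromosome 14, ordered 5′ to 3′ as 7 segments at the 5′ end, 31 D copies, 13 N copies and 38 segments of the 3′ block. D copies made up 33.4% of WT and I173A chains in CD4 SP and 33.9% in CD8 SP, N copies 14.9% and 15.04%, and the 3′ block 48.4% and 47.3%. Segments higher in CD8 SP were 4 of the 16 D copies compared, 1 of 9 N copies and 2 of 30 in the 3′ block. Those higher in CD4 SP were 4 of 16, 1 of 9 and 5 of 30, with the 1 segment compared at the 5′ end. Blocks follow the copy named in the TCR tables, while the RNA matrices hold 128 Trav names. In cells with 1 TRA chain, D copies differed in the percent of Trav UMIs under their own name. It was 2.22% for TRAV3D-3 and 4.35% for TRAV12D-2, but 83.2% for TRAV7D-3. The block shares and counts therefore depend on the copy names, which were not tested.

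Cells with 2 TRA chains showed a smaller difference than cells with 1. To sum over segments without choosing them on the same cells, 15 segments with a ratio of at least 1.5 and 16 with a ratio of at most its inverse were taken from hashtag 5 (at least 40 chains) and summed in WT and I173A. This choice was made after the segment ratios had been seen. The 15 segments were 1.88 times as frequent in CD8 SP as in CD4 SP in WT (1.69 to 2.09) and 1.85 times in I173A (1.66 to 2.07), and the 16 segments 0.538 times (0.481 to 0.602) and 0.579 times (0.515 to 0.651). In cells with 1 TRA chain the ratios, WT and I173A summed, were 1.96 (1.80 to 2.14) and 0.515 (0.469 to 0.565), and in cells with 2 they were 1.58 (1.35 to 1.86) and 0.705 (0.599 to 0.829). For the 16 segments these intervals did not overlap, while for the 15 they did. Within WT alone (0.442 to 0.574 and 0.521 to 0.824) and I173A alone (0.462 to 0.607 and 0.600 to 0.964) the intervals of the 16 overlapped as well. The 16 segments include TRAV11. It had 81 CD4 SP and 5 CD8 SP chains in cells with 1 TRA chain, and 14 and 8 in cells with 2. In chains joined to TRAJ segments numbered above 30, which lie towards the 5′ end of that cluster, the ratios of the 15 and the 16 segments were 2.06 (1.83 to 2.32) and 0.567 (0.504 to 0.637), and in the other chains 1.74 (1.57 to 1.93) and 0.545 (0.487 to 0.610). TRAV11 had 7 CD4 SP and 7 CD8 SP chains in the first group, and 88 and 6 in the other, which holds TRAJ18. Ratios of the 16 segments without TRAV11 were not computed, so its part in these comparisons was not tested. The mean length of CDR3 was also set beside the gates, with the SD over single chains, which is not the error of a mean. Over the chains of the 7 segments higher in CD8 SP it averaged 13.8 residues (SD 1.46 over 261 chains) in WT CD4 SP and 14.1 (SD 1.58 over 554) in WT CD8 SP, and over the 11 higher in CD4 SP 13.4 (SD 1.26 over 688) and 13.4 (SD 1.29 over 251).

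The germline CDR1 and CDR2 of the segments were compared next, a step added after the ratios had been seen. The 88 segments with both regions fell into 62 groups with the same encoded CDR1 and CDR2, of which 20 held more than 1 segment. Over pairs of the 56 segments, the median absolute difference in log2 ratio was 0.36 for 11 pairs with the same encoded CDR1 and CDR2, 0.68 for 96 pairs of the same subgroup with other CDRs, and 0.84 for 1433 pairs from different subgroups. Pairs share segments, so these medians are descriptions. The largest differences were 1.27, 2.50 and 4.74 in these kinds of pair. The last was that of TRAV8D-2 and TRAV11, whose ratio was 1.10 without chains joined to TRAJ18. Some segments with the same encoded loops had close ratios and others did not. TRAV4-4-DV10 and TRAV4D-4 together had 0.396 (0.316 to 0.494), and TRAV6-5, TRAV6D-5 and TRAV6N-5 lay between 0.550 and 0.574. TRAV13-1, TRAV13D-1 and TRAV13N-1 together had 1.43 (1.19 to 1.73), with members from 1.23 to 1.95. Ratios lay further apart in TRAV7-4, TRAV7D-4 and TRAV7N-4 (0.336 to 0.742), TRAV6-4 and TRAV6D-4 (0.288 and 0.804), and TRAV8D-2 and TRAV8N-2 (4.03 and 1.67). Some of these members had fewer than 80 chains. TRAV4-3 and TRAV4D-3, of the same subgroup as TRAV4-4-DV10 but with other CDRs, together had 0.885 (0.676 to 1.16). TRAV8-1 and TRAV8D-1 together had 0.978 (0.743 to 1.28) against 2.46 (1.85 to 3.29) for TRAV8D-2 and TRAV8N-2.

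In 23 pairs of the 56 segments, both of 1 subgroup, CDR1 and CDR2 had the same lengths and differed in 1 to 3 bases. The sequences of the pairs with the largest differences, and of the TRAV4 segments named above, are shown because they place the base changes beside the gate ratios. Each runs 5′ to 3′ on the coding strand from the first base of CDR1 to the last of CDR2, as read in the chains, with CDR1 and CDR2 in capitals and the framework between them in lower case.
TRAV5-4: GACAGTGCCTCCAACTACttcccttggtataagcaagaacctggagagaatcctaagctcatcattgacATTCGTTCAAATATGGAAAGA
TRAV5D-4: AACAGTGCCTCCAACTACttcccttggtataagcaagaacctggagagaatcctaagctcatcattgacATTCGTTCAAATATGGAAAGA
TRAV7-6: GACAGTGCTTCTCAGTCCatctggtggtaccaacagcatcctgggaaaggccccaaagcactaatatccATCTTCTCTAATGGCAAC
TRAV7N-6: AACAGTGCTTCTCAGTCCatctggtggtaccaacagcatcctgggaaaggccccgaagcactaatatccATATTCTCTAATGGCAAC
TRAV9D-3: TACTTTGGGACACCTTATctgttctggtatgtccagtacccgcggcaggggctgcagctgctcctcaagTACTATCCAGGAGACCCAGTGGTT
TRAV9-2: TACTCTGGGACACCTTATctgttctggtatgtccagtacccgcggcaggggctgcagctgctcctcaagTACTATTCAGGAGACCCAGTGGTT
TRAV9N-4: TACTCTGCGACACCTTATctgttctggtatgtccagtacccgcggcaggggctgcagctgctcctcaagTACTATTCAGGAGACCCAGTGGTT
TRAV12D-3: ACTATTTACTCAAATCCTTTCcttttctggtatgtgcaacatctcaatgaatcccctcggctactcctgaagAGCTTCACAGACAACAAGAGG
TRAV12-3: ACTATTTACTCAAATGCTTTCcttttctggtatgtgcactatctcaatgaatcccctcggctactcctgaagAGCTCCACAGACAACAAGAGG
TRAV12-2: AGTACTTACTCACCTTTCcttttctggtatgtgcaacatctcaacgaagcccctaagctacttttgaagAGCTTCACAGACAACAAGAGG
TRAV12D-2: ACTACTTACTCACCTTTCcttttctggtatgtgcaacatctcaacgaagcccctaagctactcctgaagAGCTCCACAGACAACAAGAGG
TRAV16: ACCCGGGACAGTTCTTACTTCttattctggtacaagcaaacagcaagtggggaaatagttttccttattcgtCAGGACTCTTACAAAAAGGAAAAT
TRAV16D-DV11: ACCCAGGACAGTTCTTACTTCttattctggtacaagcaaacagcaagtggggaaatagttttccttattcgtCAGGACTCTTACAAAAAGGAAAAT
TRAV8D-2: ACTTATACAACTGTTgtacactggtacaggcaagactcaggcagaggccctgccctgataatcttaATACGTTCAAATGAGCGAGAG
TRAV8N-2: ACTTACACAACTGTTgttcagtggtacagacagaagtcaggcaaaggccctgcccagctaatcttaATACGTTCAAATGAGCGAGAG
TRAV4D-4: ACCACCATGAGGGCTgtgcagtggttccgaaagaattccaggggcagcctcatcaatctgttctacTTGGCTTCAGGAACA
TRAV4-3: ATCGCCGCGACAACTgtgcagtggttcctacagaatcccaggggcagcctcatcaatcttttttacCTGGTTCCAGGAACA

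Positions below count from 1 at the first base of the CDR named, and each substitution reads from the segment with the higher CD8 SP to CD4 SP ratio to the other. Of the 23 pairs, 8 had ratios whose quotient, with WT and I173A summed, had a 95% interval without 1, and the intervals are not adjusted for the number of pairs. All 8 went in the same direction in hashtag 5, 5 of them with an interval without 1, while of the other 15 pairs 4 did, 2 of them, TRAV13-2 over TRAV13D-2 (2.20, 1.05 to 4.69) and TRAV14D-1 over TRAV14-2 (1.89, 1.04 to 3.46), with a hashtag 5 interval without 1. TRAV5-4 and TRAV5D-4 differed in the CDRs by 1 base, G1A in CDR1, which changes the encoded residue, and by 5 bases of the frameworks. TRAV5-4 made up 1.44% of WT and 1.63% of I173A chains in CD4 SP against 2.28% and 2.01% in CD8 SP, a ratio of 1.41 (1.06 to 1.87), while TRAV5D-4 had 0.480. In hashtag 5 the ratios were 0.989 and 0.464. The quotient was 2.92 (1.81 to 4.77), with 3.46 in WT, 2.44 in I173A and 2.12 (1.06 to 4.33) in hashtag 5. The pair TRAV7-6 and TRAV7N-6 carried the same CDR1 substitution, G1A, with C3A in CDR2 and 7 framework bases. Its ratios were 1.41 (0.943 to 2.12) and 0.382 and the quotient 3.67 (2.05 to 6.67), with 5.82 in WT, 2.37 in I173A and 1.90 (0.799 to 4.55) in hashtag 5.

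In TRAV9, TRAV9D-3 and TRAV9-2 differed by T5C in CDR1, C7T in CDR2 and 3 framework bases. Their ratios were 2.28 and 0.699 and the quotient 3.25 (1.99 to 5.34), or 2.43 (1.13 to 5.31) in hashtag 5. TRAV9N-4 had the CDR2 sequence of TRAV9-2 and a ratio of 0.663, and TRAV9-4, whose CDR bases that differ from TRAV9-2 leave the encoded residues the same, had 0.779. Of the 8 TRAV9 segments, TRAV9-1, TRAV9-2, TRAV9-4, TRAV9D-1 (0.786), TRAV9D-2 (0.262) and TRAV9N-4 lay below 1, TRAV9D-3 above it, and TRAV9D-4 had 3 chains in each gate. TRAV12 gave 2 pairs with 1 substitution in common, T5C in CDR2. TRAV12D-3 and TRAV12-3 also differed by C16G in CDR1 and 7 framework bases, and their ratios were 2.36 and 1.03, a quotient of 2.29 (1.52 to 3.43) and of 2.77 (1.49 to 5.21) in hashtag 5. TRAV12-2 and TRAV12D-2 also differed by G2C in CDR1 and 8 framework bases, with 1.97 and 1.20, a quotient of 1.64 (1.17 to 2.31) and of 2.10 (1.26 to 3.53) in hashtag 5. TRAV12-1 and TRAV12D-1 had the CDR2 of TRAV12-3 and TRAV12D-2 and ratios of 1.73 (1.19 to 2.55) and 1.33 (0.788 to 2.25). In hashtag 5 TRAV12-2 and TRAV12D-3, which share the first CDR2, were at 2.25 and 2.34, and the 4 segments that share the other at 2.32 (TRAV12-1), 0.841 (TRAV12-3), 0.903 (TRAV12D-1) and 1.07 (TRAV12D-2).

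Bases outside the CDRs differed in every pair, so the part of the loops and of the frameworks cannot be told apart in these pairs. TRAV8D-2 and TRAV8N-2 encode the same CDR1 and CDR2, with T6C in CDR1 leaving the residue unchanged, but differ in 22 framework bases, and their ratios were 4.03 and 1.67, a quotient of 2.40 (1.30 to 4.52) and of 2.03 (0.763 to 5.79) in hashtag 5. TRAV16 and TRAV16D-DV11 differed by G5A in CDR1 and 4 framework bases, with a quotient of 1.84 (1.13 to 2.99), while TRAV16N, with the CDR1 and CDR2 of TRAV16, and TRAV16D-DV11 had a quotient of 1.19 (0.763 to 1.83). Other pairs with an encoded change had like ratios within error. TRAV14-1 and TRAV14D-1, which differ by T5G in CDR2, had 0.876 and 0.876, and TRAV9-2 and TRAV9N-4, which differ by G8C in CDR1, had 0.699 and 0.663, with intervals of the quotient of 0.614 to 1.63 and 0.616 to 1.81.

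**Figure D3:**
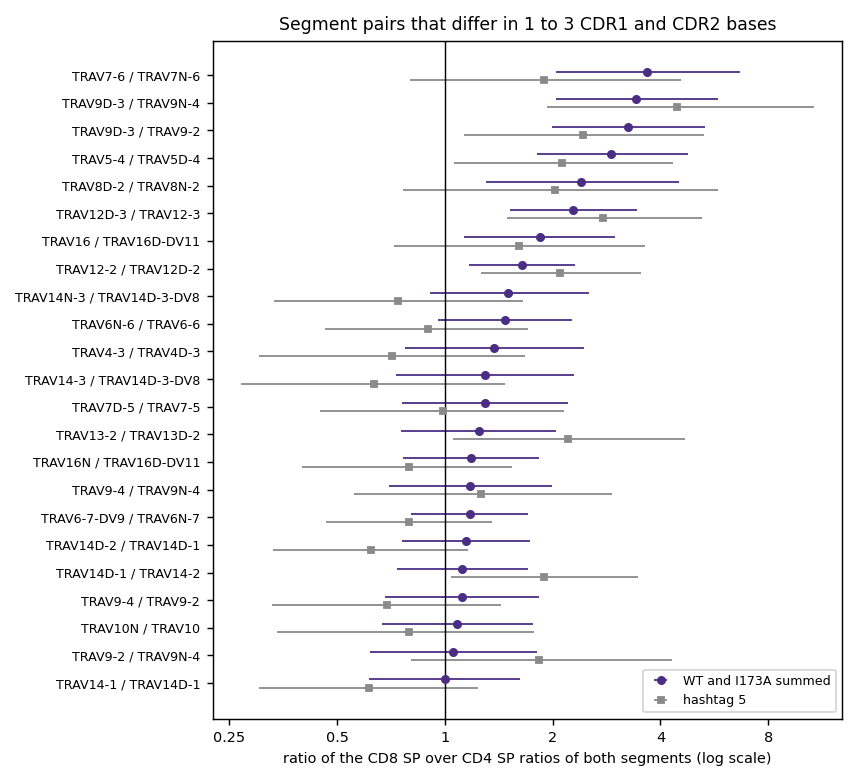
Quotient of the CD8 SP over CD4 SP ratios of 2 segments of a subgroup (x axis, log scale) for the 23 pairs that differ in 1 to 3 bases of CDR1 and CDR2, with 95% intervals, for WT and I173A summed (circles) and hashtag 5 (squares). The order within a pair was set by the circles, so these cannot lie below 1. The squares of the 8 highest pairs all lie above 1, from 1.61 to 4.45, and those of 11 of the other 15 lie below it.

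The copies carry the V names given to the assembled chains, whose CDR1 and CDR2 matched the printed sequence in at least 98.9% of the chains of each segment shown. The names are given from the same sequences, so this match does not test them. The RNA libraries gave a partial check, since they count a UMI under a Trav gene name without the contig. With WT and I173A summed, all 19 subgroups had the CD8 SP to CD4 SP ratio of their Trav UMIs on the same side of 1 as in the chains, among them TRAV16 (2.24), TRAV12 (1.61), TRAV4 (0.679) and TRAV14 (0.601). This did not hold in every set taken alone. In I173A, TRAV11 had an RNA ratio of 1.58 against 0.120 in chains, from 17 CD8 SP and 53 CD4 SP UMIs with WT and I173A summed, and TRAV10 1.06 against 0.975. In hashtag 5, TRAV1 (0.961 against 1.08), TRAV15 (1.66 against 0.516) and TRAV17 (0.731 against 1.04) also lay on opposite sides. For single copies the RNA often held no such information. In cells whose 1 TRA chain was TRAV5-4, 63.0% of Trav UMIs were named Trav5-4 and 0% Trav5d-4. In cells with TRAV5D-4 only 0.867% were named Trav5d-4 and 1.45% Trav5-4. The same held for TRAV4D-4 (0.321% of the UMIs under its own name), TRAV12D-3 (0.822%), TRAV9D-3 (2.34%) and TRAV7N-6 (4.33%), whereas TRAV8D-2, TRAV8N-2, TRAV16, TRAV16N and TRAV16D-DV11 had between 66.9% and 85.3% under their own names. In cells with TRAV12D-3 the most frequent Trav name was Trav12n-3, with 20.5% of the UMIs. TRAV12N-3 was not among the 89 names of the TCR tables, and which of these copies the chains came from was not tested.

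DP cells hold α chains that are mostly not yet selected. Their TRAV use was set against the mean of the CD4 SP and CD8 SP shares for the 60 segments with at least 80 chains over the 3 gates. By the 1.5-fold rule in both genotypes, 7 segments (11.7%) were higher in DP and 6 (10%) were lower. Between sets of cells the DP values of the 60 segments had a Pearson r of 0.438 for WT and I173A. It was 0.383 for WT and hashtag 5, and 0.375 for I173A and hashtag 5. The 5 segments with the largest DP shares in WT and I173A were TRAV13-1, TRAV6-6, TRAV6N-7, TRAV21-DV12 and TRAV4-4-DV10. TRAV21-DV12, the last TRAV segment at the 3′ end of the locus (chr14:53876016-53876752), stood apart. It made up 3.30% of WT, 2.77% of I173A and 2.70% of hashtag 5 chains in DP against at most 1.39% in any single-positive sample, 3.78, 3.31 and 2.43 times the single-positive mean. TRAV15, a subgroup also used by δ chains, was 3.00, 3.04 and 2.40 times as frequent in DP as in the single-positive mean, from 12, 16 and 10 DP chains. The TRAV13 subgroup was 1.47, 1.32 and 1.28 times as frequent, and the segment TRAV7D-5 2.06, 2.27 and 1.70 times. The other 5 segments called higher in DP, TRAV12-1, TRAV12-3, TRAV13-2, TRAV13-4-DV7 and TRAV4-4-DV10, were between 0.542 and 1.27 times in hashtag 5, so none of them passed 1.5-fold there and 3 of the 5 were below 1.

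TRAV9 had the lowest DP share relative to the single-positive mean of the subgroups compared in I173A and in hashtag 5, while in WT TRAV8 (0.483) was lower. It made up 4.36%, 3.82% and 3.05% of DP chains in WT, I173A and hashtag 5, while CD4 SP had 7.76%, 7.58% and 8.97% and CD8 SP 6.62%, 6.01% and 5.19%. Relative to the mean of both gates this was 0.607, 0.562 and 0.430. Of the 6 segments called lower in DP, TRAV9-1, TRAV9-2, TRAV10N, TRAV7-3, TRAV14D-3-DV8 and TRAV16N, all 6 were below 1 in hashtag 5 and all but TRAV16N (0.793) were past 1.5-fold. TRAV14D-3-DV8 was at 0.396%, 0.191% and 0.586% in DP, from 3, 2 and 5 chains. The biased segments were not all between the gates in DP. TRAV16N made up 1.45%, 2.10% and 2.46% of DP chains, close to its 1.63%, 2.48% and 1.90% in CD4 SP and below its 4.26%, 4.66% and 4.32% in CD8 SP. TRAV12D-3, at 2.11%, 1.91% and 1.52% in DP, was also near its CD4 SP share. TRAV4D-4, at 2.25%, 2.20% and 2.58% in DP, lay nearer its CD4 SP than its CD8 SP share, and TRAV4-4-DV10, at 3.17%, 2.77% and 2.58%, was above both gates in WT and I173A and just below its CD4 SP share in hashtag 5.

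**Figure D4:**
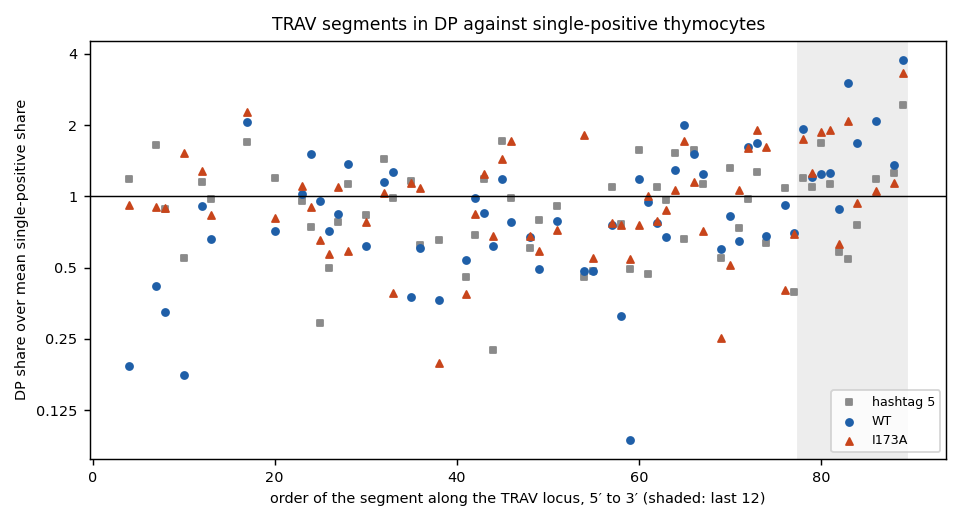
DP share over the mean of the CD4 SP and CD8 SP shares (y axis, log scale) for 60 TRAV segments against their order along the locus from 5′ to 3′ (x axis), for WT (circles), I173A (triangles) and hashtag 5 (squares), with the last 12 segments shaded. TRAV21-DV12, at the right edge, has the highest value in each set of cells, and the spread between sets is wide for most other segments.

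Along the locus, the 12 segments nearest the 3′ end made up 12.7% (11.6 to 13.9) of WT, 11.6% (10.4 to 12.9) of I173A and 13.8% (12.6 to 15.2) of hashtag 5 chains in CD4 SP. In CD8 SP these shares were 13.4%, 13.7% and 14.7%. DP cells had 21.0% (18.1 to 24.1), 18.6% (16.3 to 21.1) and 17.3% (14.9 to 20.1). In WT and I173A the DP intervals lay above those of CD4 SP and CD8 SP, and in hashtag 5 the DP interval overlapped both. The trend over all 60 segments differed between the sets, with a Spearman correlation of 0.455 in WT, 0.195 in I173A and 0.0684 in hashtag 5 between position and the DP ratio, given over segments that share libraries. Chains with these 12 segments were joined to TRAJ segments nearer the 5′ end of the TRAJ cluster, with a median TRAJ number of 48 in WT DP cells against 34 over all WT DP chains, and of 45 against 27 in WT CD4 SP. The gates differ as well in depth, with a median of 4 UMIs per TRA chain in WT DP cells and 9 in WT CD4 SP, and with chains of at least 3 UMIs alone 5 segments were called higher in DP, all among the 7, and 8 lower, 5 of them among the 6.

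Few TRAV segments differed between WT and I173A within a gate. Of 46 segments with at least 50 chains in CD4 SP, 2 (4.35%) were at least 1.5-fold higher in I173A and 2 (4.35%) lower. In CD8 SP these were 2 (5%) and 3 (7.5%) of 40, and in DP 0 and 1 (14.3%) of 7. The median ratios over these segments were 1.05, 0.958 and 0.873, and the intervals left out 1 for 1 CD4 SP segment, 2 CD8 SP segments and 0 DP segments. Those 3 were TRAV16N in CD4 SP (1.63% in WT and 2.48% in I173A, ratio 1.52, 1.04 to 2.22), and TRAV7-3 (0.935% and 1.68%, ratio 1.80, 1.08 to 3.06) and TRAV4-3 (1.61% and 0.933%, ratio 0.580, 0.339 to 0.972) in CD8 SP. Hashtag 5 cells had 1.90%, 1.66% and 1.20%. Below the minimum of 50 chains, where intervals are wide, TRAV19 in CD4 SP (0.393, 0.171 to 0.826) and TRAV6-1 in CD8 SP (4.19, 1.54 to 14.2, from 5 and 21 chains) also had intervals without 1. So did 5 of the 82 such segments in DP, TRAV7D-2 (2.41, 1.11 to 5.77), TRAV7N-6 (2.65, 1.04 to 7.99), TRAV7D-3 (1 and 11 chains), TRAV7N-4 (9 and 3 chains) and TRAV14D-2 (0.441, 0.188 to 0.987). The intervals are not adjusted for the number of segments. The remaining calls had intervals that held 1. These were TRAV14-1 (1.61), TRAV14-3 (0.631) and TRAV7D-4 (0.604) in CD4 SP, TRAV4D-4 (1.68), TRAV9-2 (0.635) and TRAV14-2 (0.644) in CD8 SP, and TRAV12D-2 (0.573) in DP. Immature or cycling cells moved with genotype in the CD8 SP gate, and without cells carrying such a UMI 2 of the 5 CD8 SP calls remained. In cells with exactly 1 TRA contig 2 of the 5 remained as well. Both settings leave fewer chains to reach the minimum, and the part of immature or cycling cells in the calls was not tested.

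Of the segments ranked next by size without reaching 1.5-fold, TRAV9D-3 (1.46) and TRAV13-1 (1.29) were the highest in CD4 SP, and TRAV6-7-DV9 (0.791) and TRAV10N (0.720) among the lowest. In CD8 SP, TRAV10N (1.41) and TRAV6N-6 (1.31) were next on the high side and TRAV7-4 (0.692) on the low side. No segment was called in more than 1 gate. TRAV10N lay on opposite sides of 1 in CD4 SP and CD8 SP, with intervals of 0.404 to 1.26 and 0.788 to 2.55. In DP, TRAV6N-7 (1.38), TRAV6-7-DV9 (1.16), TRAV6-6 (1.07) and TRAV4-4-DV10 (0.873) were the 4 highest of the 7 segments, and TRAV13-1 (0.839) and TRAV21-DV12 (0.838) were among the lowest, with intervals that held 1 in all of them.

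Among subgroups with at least 50 chains, ratios of I173A to WT lay between 0.816 and 1.22 in CD4 SP and between 0.906 and 1.10 in CD8 SP. In DP cells, TRAV7 made up 11.5% of WT and 15.4% of I173A chains, a ratio of 1.34 (1.02 to 1.76), and hashtag 5 had 14.1%. Cells with a UMI of Mki67 or Top2a, genes of cycling cells, were also fewer in I173A DP (12.01% and 16.1%) than in WT DP (22.8% and 25.9%), as were those with Trdc, the δ constant region (5.17% and 9.50%), and the part of these in the DP differences was not tested. TRAV8 was at 1.98% and 3.44% (1.73, 0.926 to 3.41), from 15 and 36 chains, and TRAV14 at 10.2% and 8.21% (0.807, 0.586 to 1.11). The gate ratio was also set against genotype. Over the 56 segments, the CD8 SP to CD4 SP ratio in I173A divided by that in WT had a median of 0.881, and its interval left out 1 for 2 segments, TRAV19 (1.47 in WT and 3.53 in I173A) and TRAV7-3 (0.744 and 1.51). These 2 intervals, 1.03 to 5.63 and 1.03 to 4.01, began just above 1. They are symmetric on the log scale, unlike the exact intervals of the ratios, and are not adjusted for the 56 segments. For TRAV19 the genotypes differed in CD4 SP, with 0.942% of WT chains (30) and 0.370% of I173A chains (10), while CD8 SP had 1.38% and 1.31%. In hashtag 5, whose genotype is not given, the TRAV19 ratio was 2.01 and the TRAV7-3 ratio 1.33.

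**Figure D5:**
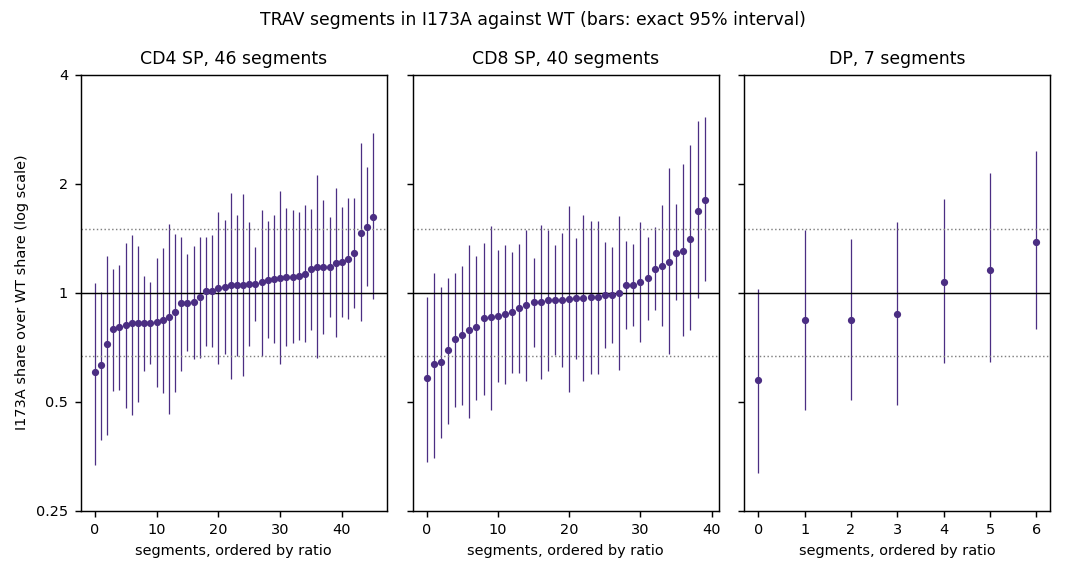
I173A share over WT share of TRA chains (y axis, log scale) for TRAV segments with at least 50 chains, ordered by the ratio within CD4 SP (46 segments), CD8 SP (40) and DP (7), with exact 95% intervals and dotted lines at 1.5-fold. Most points lie within the dotted lines, and 3 intervals in all leave out 1.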

How the data were processed

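The deposited TCR tables list assembled contigs with V and J names, CDR and framework sequences and UMI counts. The deposited RNA matrices hold the authors' raw UMI counts per gene and hashtag. The submitters' processing notes give Cell Ranger 6.0.1 and GRCm38 (mm10). Per the file headers, the software version in the matrices is 3.1.0. Other steps are not given in the sources used here. Hashtags were read from the matrix of the same gate, and a cell was given 1 hashtag if its count was 10 or more and 4 times that of any other. Barcodes with several hashtags, taken as doublets, were left out (4.20% in CD4 SP, 5.43% in CD8 SP, 5.72% in DP), while doublets within 1 hashtag remain. Cells needed 500 genes, and mitochondrial UMIs of 10% or less. Every TRA contig of these cells counted as 1 chain, without a UMI minimum. Positions came from RefSeq (GRCm38.p6), which matched all 89 symbols.

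Shares, intervals and quotients (conditional odds ratios) were computed with SciPy 1.17.1 and pandas 2.3.3, and the interval and call rules were tested on simulated chains. The text names subgroups with at least 50 chains, the 10 highest and 10 lowest CD8 SP to CD4 SP ratios, the 5 largest DP shares, the 4 highest and 4 lowest genotype ratios of each gate, TRAV11, TRAV1 and TRAV9. The members and lists were chosen with earlier results of these data known.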

Additional observations from a re-analysis of the deposited data

How the results depend on the processing

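No paired analysis was possible because each genotype was 1 sample per gate. Counting error and the single library per gate limit every value, most of all in DP.

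Among alternatives computed on contigs, 365 of 368 segment ratios and 167 of 171 subgroup ratios moved by less than their interval. All 7 segments higher in CD8 SP were called again with at least 3 UMIs, in cells with 1 TRA contig, in cells with a TRB contig, under both other hashtag rules, without cell filters, with identical chains counted once and without cells holding a TRAV11 to TRAJ18 chain. Without immature or cycling cells 6 of the 7 were. Of the 11 higher in CD4 SP, between 9 and 11 were called again under these 9 alternatives, with 9 in cells with 1 TRA contig and 9 without immature or cycling cells. From Trav UMIs of the RNA, 6 of the 7 and 5 of the 11 were called, and 8 of 40 segment and 4 of 19 subgroup ratios moved beyond their interval. The reversed value was that of TRAV11, 1.17 (0.494 to 2.82) without all chains of those cells. Its ratio was 0.0664 in cells with 1 TRA contig and 0.568 with identical chains counted once. Counts of calls that changed by more than 1.5 times were as follows, with the cause not tested unless the alternative itself sets it. With D and N copies joined, which leaves fewer segments, 4 were higher in CD8 SP, 3 higher and 2 lower in DP, and the genotype calls were 0 for CD4 SP, 2 for CD8 SP and 2 for DP. A fold of 2 left 4 segments higher in CD8 SP, 6 higher in CD4 SP, 3 higher and 1 lower in DP, and 0 genotype calls in each gate. Doubled chain minimums left 3 higher in CD4 SP, 2 higher and 1 lower in DP, and 1 genotype call for CD4 SP, 0 for CD8 SP and 0 for DP. Trav UMIs of the RNA gave 4 higher and 12 lower in DP, and 11, 13 and 3 genotype calls for CD4 SP, CD8 SP and DP. Genotype calls in CD8 SP were 3 in cells with 1 TRA contig and 2 without immature or cycling cells. The DP genotype call became 0 with at least 3 UMIs, with 1 TRA contig and under the looser hashtag rule. The 23 pair quotients were recomputed under 4 alternatives chosen after seeing the data, and all 92 stayed within their intervals, again with many chains shared.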
